A study of Drosophila melanogaster with 2 samples.

Results

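Of the 5354 sites that CG15696 occupied reproducibly in Drosophila melanogaster embryos, 526 lay in open intergenic sequence, far from the start of any protein-coding gene. A site was counted as such where its summit, the position of highest signal in the peak, lay outside every annotated gene body, coding or non-coding. The start site (TSS) of the nearest protein-coding transcript also had to be more than 5000 bp away. These 526 distant intergenic sites made up 9.82% of all sites (95% Wilson interval 9.06 to 10.7%). Chromatin came from whole embryos of mixed sex aged 2 to 8 h that carried a stable transgene with GFP fused to the C-terminus of CG15696, and it was sheared by sonication to a stated size range of 200 to 800 bp and precipitated with an antibody against GFP. The labels give 1 group with 2 biological replicates, numbered 1 and 3, and peaks were called against the same 1 control alignment. No embryos without the tag form a group of their own, so nothing here is a comparison between genotypes or treatments, and no p-value is given. Whole embryos mix all tissues, so a stronger signal per cell and a larger number of occupied cells cannot be told apart.

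CG15696 encodes a homeodomain protein of the NKL class, a group of transcription factors that pattern the embryo in many animals. Homeodomains contact short AT-rich DNA, most often around a TAAT core, and many NK-type proteins prefer a variant with AAGTG. In flies, the genes that control embryonic patterning often lie beside long stretches without other genes. Enhancers in such gene deserts act on promoters over long distances, and several enhancers of 1 gene can lie side by side. Insulators, bound by proteins such as CTCF, also lie in intergenic sequence and set which enhancers reach which promoter.

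The distant sites are shown first by the reference sequence at their summits. Each line gives 101 bases of the plus strand of Release 6 (dm6), centred on the summit, read from the RefSeq copy of the genome. Capitals mark each TAAT core on either strand, so a core on the other strand reads ATTA. The 6 sites were chosen among the strongest distant sites and lie beside genes of known function.
Cyt-c1L to eEF1gamma, chr3R:29214387-29214487: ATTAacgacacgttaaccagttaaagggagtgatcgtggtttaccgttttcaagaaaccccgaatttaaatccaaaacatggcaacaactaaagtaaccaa
BobA to Tom, chr3L:14956440-14956540: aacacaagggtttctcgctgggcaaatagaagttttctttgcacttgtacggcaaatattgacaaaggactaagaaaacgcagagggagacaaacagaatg
CG7255 to Toll-6, chr3L:15321095-15321195: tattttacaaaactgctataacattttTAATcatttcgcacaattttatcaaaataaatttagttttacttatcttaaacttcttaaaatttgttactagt
Ids to sty, chr3L:3396219-3396319: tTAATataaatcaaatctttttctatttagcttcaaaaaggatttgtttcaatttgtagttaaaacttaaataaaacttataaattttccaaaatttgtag
tup to ssp3, chr2L:18890228-18890328: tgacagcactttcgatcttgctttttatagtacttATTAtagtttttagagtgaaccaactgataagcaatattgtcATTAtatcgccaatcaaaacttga
grim to rpr, chr3L:18348745-18348845: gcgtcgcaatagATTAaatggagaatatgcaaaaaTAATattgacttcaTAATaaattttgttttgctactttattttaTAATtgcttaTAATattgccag
The sites beside eEF1gamma, Toll-6 and sty hold 1 core each in this window, whereas the site between grim and rpr holds several. The site between BobA and Tom holds none and has 41.6% GC. Nor do the strong sites between Glut3 and abd-A (56.4% GC), CG13970 and CG10651 (50.5%) and soti and cv-c (55.4%) hold one, so the AT-rich windows shown are not typical of every strong site.

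The strongest distant site lay between Cyt-c1L and eEF1gamma, a subunit of the translation elongation factor complex. Its signal, the authors' value per peak, whose scale is not stated, was 3332 in the list made from both replicates, and it ranked 24 of 5354. In the separate lists its signal was 1159.9 in replicate 1 and 2174.5 in replicate 3. Its summit lay 5735 bp from the TSS of eEF1gamma but only 125 bp from that of the non-coding gene lncRNA:CR31044, so it is distant only with respect to protein-coding genes. The second lay between Syx7 and croc, 11982 bp from the TSS of croc, which encodes a forkhead transcription factor. Its signal was 2418 in the joint list, with 1315 in replicate 1 and 1099 in replicate 3, so that it was the 14th strongest peak of replicate 1 and the 144th of replicate 3. The third lay between CG13321 and Psc, a Polycomb-group gene, with a signal of 2047. Both replicates ranked these 3 sites 144th or higher among their own peaks.

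Among the other sites in the 20 strongest, several lay beside genes of patterning and signalling. The site between BobA and Tom, both of the Bearded family that dampens Notch signalling, had a signal of 1639, with 856 in replicate 1 and 768 in replicate 3. The site between Inx2, which encodes a gap junction protein, and cm, which encodes a subunit of an adaptor complex, had 1742, with 772 in replicate 1 and 956 in replicate 3. Toll-6, a cell-surface receptor gene of the Toll family, had a site at 1344, with 482 in replicate 1 and 866 in replicate 3, 15547 bp from its TSS. Those 3 loci were strong in both lists, and the order of the replicates differed between them. The Hox gene abd-A had a site at 1301 between it and Glut3. The gene sty, whose product restrains receptor tyrosine kinase signalling, had a site at 1288 beyond its 3′ end, next to Ids. The LIM-homeodomain gene tup had 1206, and vn, which encodes a ligand of the epidermal growth factor receptor, had 1200.5. The zinc-finger gene noc had 3 strong neighbours, since sites at 1301 toward CG33648 and at 1175 toward CG15283 both ranked in the 20 strongest, and a further site at 941 lay on its CG33648 side. The remaining sites of the 20 lay beside CG13896 and hng3, where 2 sites had 1980.2 and 1183, between CG44362 and CG7560 (1778), CheA75a and CG5103 (1480.1), CG13970 and CG10651 (1264), soti and cv-c (1254), CG43336 and pxb (1248), and CG6168 and CG6163 (1219). No distant intergenic site flanked CG15696 itself.

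Distance from genes went with little difference in strength. The median signal was 238.6 at the 526 distant sites (quartiles 171.9 and 421.2) and 259.2 over all 5354 sites (175.7 and 462.3). It was 251.9 at the 536 intergenic sites that lay over 500 and up to 5000 bp from a TSS, 243.8 at the 661 sites over 5000 bp from a TSS inside a gene, and 272.2 at the 2245 promoter sites, within 500 bp of a TSS. The quartile ranges of these groups overlap widely. The 1338 strongest of the 5354 sites held 113 distant sites, which is 21.5% of the 526, and the share was likewise 21.5% for distant sites inside genes. Of the distant intergenic sites, 4 were among the 100 strongest of all sites, with none in the top 20. Within the 526, signal had a Spearman correlation of -0.0027 with distance to the TSS and of -0.046 with the length of the surrounding gap. Sites share libraries and are not replicates, so these correlations are descriptions only.

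The rule has a threshold at 5000 bp. The 35 distant sites within the first 500 bp beyond it had a median signal of 227.7, and the 29 intergenic sites whose TSS lay 4500 to 5000 bp away had 241.5. Their median GC content within 50 bp of the summit was 30.7% just inside the rule and 36.6% just outside it. The closest distant site lay 5077 bp from a TSS with a signal of 150.1, and the closest site left out lay at 5000 bp with 171.7. From there the distances spread far. The median was 10818.5 bp (quartiles 7440 and 16656) and the maximum 72135 bp, with 294 sites over 10 kb, 86 over 20 kb and 4 over 50 kb from any protein-coding TSS. Non-coding genes were often closer, since 158 sites lay within 5000 bp of a non-coding TSS and 23 within 500 bp.

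Replication was close to that of all sites. The authors had kept every site for its reproducibility between these 2 replicates, so the level of these shares is partly set by that choice. A summit within 100 bp appeared among the 5354 strongest peaks of both replicates for 378 distant sites (71.9%, interval 67.9 to 75.5%), against 72.7% of all sites. In the full lists of 30000 peaks the count was 495 (94.1%), against 94.3% of all sites. Weak sites had both partners less often in a cut by joint signal. Both lists of equal length held 129 of the 131 strongest distant sites, 125 of the next 132 and 89 of the next 131. Of the 132 weakest they held only 35. The joint signal is made from both replicates, so such a fall is built into the cut. Among the 1339 weakest of all sites, 38 of 141 distant sites and 299 of 1198 others appeared in both, so the fall was alike. Of the sites in 1 of these lists only, 54 were in that of replicate 1 and 86 in that of replicate 3, and 8 were in neither. At the 495 sites matched in both full lists the rank correlation of signal between replicates was 0.71 (Spearman), against 0.72 over all 5049 matched sites. Precision is set by these 2 libraries, whose read depth is not given in the sources used here, and intervals on shares cover counting error only.

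The signal values of replicate 3 were higher at most sites, to a degree that differed between classes of site. The median signal of distant sites was 105.1 in replicate 1 and 142.4 in replicate 3. The log2 ratio of replicate 3 to replicate 1 had a median of 0.56 at distant intergenic sites (quartiles 0.15 and 0.89), 0.43 at distant sites inside genes, 0.54 at the 1254 sites inside genes nearer a TSS, 0.64 at intergenic sites nearer a TSS, 0.92 at promoters and 0.69 over all sites. The scale of each list is not stated, so the level of this ratio has no absolute meaning, whereas the order among these groups is measured within the same 2 lists. At 293 of the 495 matched distant sites (59.2%) the ratio lay below the median of all sites. The quartile ranges of the groups overlap, and with 1 library per replicate number the difference has no further check.

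**Figure D1:**
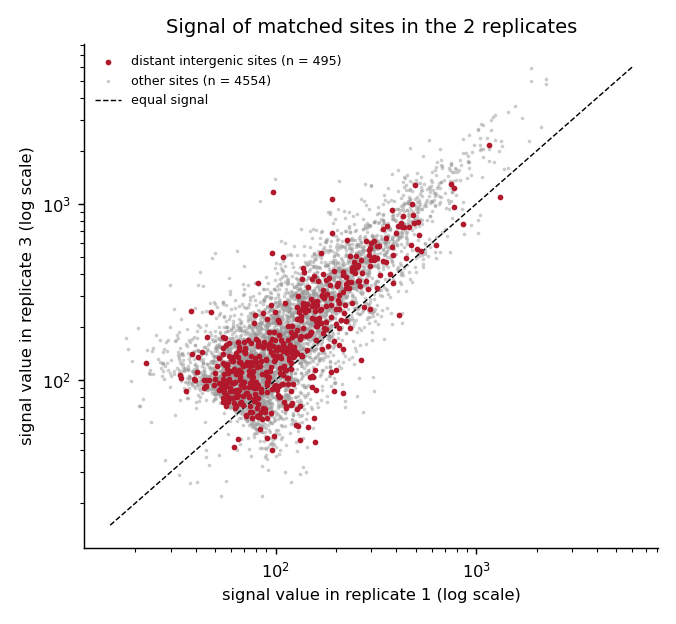
Signal value of each site matched in both full replicate lists, replicate 1 on the x axis and replicate 3 on the y axis, both on log scales. Red points are the 495 matched distant intergenic sites and grey points the other sites. The red points follow the same diagonal band, mostly above the dashed line of equal signal, and 1 red point stands out at 97.1 in replicate 1 and 1165 in replicate 3.

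The plot of signal in the 2 replicates shows single sites far off the band. The site between CG13970 and CG10651 had 97.1 in replicate 1, where it ranked 2901, and 1165 in replicate 3, where it ranked 130, a log2 ratio of 3.58. The site between soti and cv-c had 191.7 in replicate 1 and 1066 in replicate 3, a ratio of 2.48. Reading the sequences of the 10 distant sites with the highest ratios showed the letters AGATGGCG or AGGTGGCG in 4 of them. The site between CG13970 and CG10651 did not hold these letters. These letters form the core of the motif known for the insulator protein CTCF in flies. They were searched after the ratios had been seen, so the counts that follow are descriptions.

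The letters occurred within 50 bp of the summit at 12 of 526 distant sites (2.28%, interval 1.31 to 3.94%) and at 116 of 4828 other sites (2.40%). AGATGGCG alone was in 1.71% of distant sites, in 0.19% of flanking windows of the same width centred 350 bp away and in 0.15% of windows of eligible sequence with the same GC content. Of the 12 sites, 11 were matched in both replicates, and their log2 ratio of replicate 3 to replicate 1 had a median of 1.72 and a range of 0.54 to 2.48. The 484 matched distant sites without the letters had a median of 0.55. A ratio over 1 was found at 9 of the 11 sites and at 86 of the 484 (17.8%). Outside the distant class the same pattern was measured at other sites, with a median of 1.35 for the 112 that held the letters and 0.70 for the 4442 that did not. In the list of replicate 1 cut to 5354 peaks 5 of the 12 sites were present, against 11 of the 12 in that of replicate 3. Of all distant sites, 82.1% were in this list of replicate 1 and 88.2% in that of replicate 3. Only the count in replicate 1 thus lay well away from the usual share.

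The following 4 sites with these letters are shown because they carry that difference between replicates. Capitals mark AGATGGCG or AGGTGGCG, or their reverse complements CGCCATCT and CGCCACCT, in 101 bases of the plus strand of Release 6 centred on the summit.
soti to cv-c, chr3R:14391388-14391488: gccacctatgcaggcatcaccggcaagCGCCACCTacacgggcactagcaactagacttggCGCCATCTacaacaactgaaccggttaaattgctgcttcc
Jhbp1 to CG14662, chr3R:4970768-4970868: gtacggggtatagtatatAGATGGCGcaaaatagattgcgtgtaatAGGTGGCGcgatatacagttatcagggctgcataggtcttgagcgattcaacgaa
Fancm to C15, chr3R:21487919-21488019: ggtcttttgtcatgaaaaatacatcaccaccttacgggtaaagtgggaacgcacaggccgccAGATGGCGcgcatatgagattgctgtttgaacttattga
CadN to CadN2, chr2L:17784808-17784908: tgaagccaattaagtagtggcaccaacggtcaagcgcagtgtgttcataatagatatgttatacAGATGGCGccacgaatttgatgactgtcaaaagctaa
The first pair hold 2 copies each. The site beside Jhbp1 had 109.3 in replicate 1 and 502.3 in replicate 3. The site beside the homeobox gene C15 had 81.8 in replicate 1 and 354.3 in replicate 3. The site between CadN and CadN2, which encode cadherins of axons, had 42.9 in replicate 1 and 143.7 in replicate 3. All 4 were stronger in replicate 3, by log2 ratios of 1.74 to 2.48.

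Summits of distant sites were poor in GC, and the sequence around them was not. The median GC content within 50 bp of the summit was 30.7% (quartiles 25.7 and 37.6), with a mean of 32.0% ± 9.24 (SD over 526 sites). In windows of the same width centred 350 bp to either side the median was 45.5% and the mean 45.0% ± 7.09. The summit was lower than its flanks at 424 of the 526 sites (80.6%), and at 3794 of the 4828 other sites (78.6%). Eligible sequence, the bases that themselves meet the rule, had a median of 41.6% over 236537 windows of 101 bp. So the summits lay below their setting and the flanks above it. GC content at the summit had a Spearman correlation of -0.067 with signal.

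**Figure D2:**
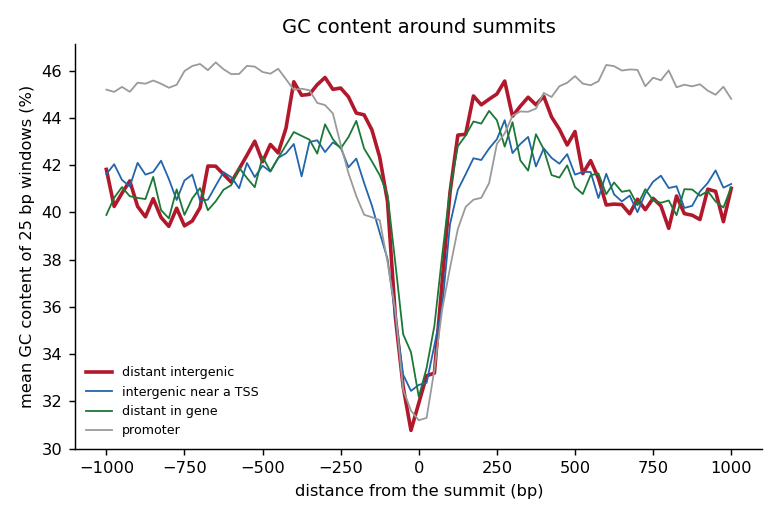
Mean GC content of 25 bp windows (y axis, %) against distance from the summit (x axis, bp) for distant intergenic sites, intergenic sites nearer a TSS, distant sites in genes and promoter sites. The red line of distant intergenic sites drops to 31.9% at the summit, stands at 45.7% 300 bp before it and at 44.1% 300 bp after it, and is at 41.8% 1000 bp before it and 41.0% 1000 bp after it.

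The plot of GC content around summits shows a trough flanked by shoulders. At distant intergenic sites the mean was 44.2% at 200 bp before the summit and 45.5% at 400 bp before it, and it came down to 41.3% at 600 bp and 39.4% at 800 bp. The shoulders were lower at intergenic sites nearer a TSS, with 42.3% at 200 bp and 42.9% at 400 bp before the summit. Distant sites inside genes also showed a fall, from 43.9% at 200 bp and 43.4% at 400 bp to 39.7% at 800 bp before the summit. In the windows centred 350 bp to either side their median was 43.1%, as at intergenic sites nearer a TSS. That is below the 45.5% of distant intergenic sites. Promoters had no such fall, since their mean was still 45.3% at 800 bp before the summit. Of the summit windows, 74 (14.1%) were mostly soft-masked, against 14.8% of the other sites. Counted by single bases, 395 of the 526 summits lay in unmasked sequence, and 30.1% of eligible sequence is masked. The share of windows and the share of bases are different measures. Annotated transposable elements cover 13.1% of eligible sequence, and 2 of the 526 summits (0.38%) lay in one.

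A TAAT core lay within 50 bp of the summit at 423 distant sites (80.4%), in 56.8% of the flanking windows and in 81.1% of eligible windows of the same GC content. The core was thus about as common as in other sequence of the same base composition. The longer homeodomain site TAATTA was found at 39 distant sites (7.41%, interval 5.47 to 9.98%), which is above the flanks (4.94%) but below eligible windows of the same GC content (12.5%) and below the other sites (11.0%). TAATTG, at 10.8%, was also under its GC-matched level of 12.7%, though its interval of 8.46 to 13.8% includes that level. A further homeodomain word, TAATGA, was not under its GC-matched level. It was at 57 sites (10.8%, interval 8.46 to 13.8%), against 7.32% of flanks, 10.3% of GC-matched windows and 7.54% of the other sites. The NK-type letters TAAGTG were at 41 sites (7.79%), against 4.56% of flanks, 5.88% of GC-matched windows and 6.26% of the other sites, and CACTTAA, which holds the reverse complement of AAGTG, was at 16 sites (3.04%), against 1.52% of flanks, 2.33% of GC-matched windows and 2.67% of the other sites. All motifs were searched on both strands. The interval of TAAGTG, 5.80 to 10.4%, lies above the flanks and includes the shares of GC-matched windows and of the other sites. The E-box CATATG was at 4.37% of distant sites, 2.28% of flanks, 3.04% of GC-matched windows and 5.18% of the other sites. The E-box CAGCTG was at 2.47% of distant sites, 4.85% of flanks and 1.80% of GC-matched windows. GAGAG of GAGA factor was at 8.75% of distant sites, 12.5% of flanks and 7.68% of GC-matched windows. AGATAAG of GATA factors was at 1.90% of distant sites, 1.90% of flanks and 1.43% of GC-matched windows, and CAGGTA of the early activator Zelda at 1.71% of distant sites, 1.71% of flanks and 1.84% of GC-matched windows. TATAAA was at 25.9% of distant sites, 8.27% of flanks and 23.7% of GC-matched windows. TATCGATA of DREF, a factor of housekeeping promoters, was at 1 distant site (0.19%), against 1.26% of the other sites.

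Among the 524 words of 6 bases present in at least 5% of distant sites, those with the highest ratio to GC-matched eligible windows overlapped each other. CACTGA stood at 8.75% of distant sites and 3.04% of GC-matched windows, CAGTGC at 7.03% and 2.67%, ACTGAG at 5.70% and 2.33%, and ACACTG at 6.46% and 2.89%. CACTGA was at 4.81% of the other sites, whose interval of 4.24 to 5.45% does not reach that of the distant sites, 6.62 to 11.5%. These intervals do not allow for the choice of CACTGA from 524 words. The forkhead core GTAAACA was at 22 distant sites (4.18%), 1.71% of flanks, 2.06% of GC-matched windows and 5.82% of the other sites. Its sites leaned to replicate 1: the median log2 ratio of replicate 3 to replicate 1 was 0.27 at the 22 distant sites with the core, against 0.56 over all matched distant sites, and it was 0.21 at the 270 other matched sites that held it. These words were chosen after their shares were seen.

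Of the 22 sites with GTAAACA, 3 lie in the gap with the most sites, between CG6168 and CG6163. The strongest of those 3 and the site between Inx2 and cm are shown because each holds 2 copies in opposite orientation. Below them stands 1 site with CACTGA. Capitals mark GTAAACA or TGTTTAC in the first pair and CACTGA in the last, in 101 bases of the plus strand of Release 6 centred on the summit.
Inx2 to cm, chrX:7004256-7004356: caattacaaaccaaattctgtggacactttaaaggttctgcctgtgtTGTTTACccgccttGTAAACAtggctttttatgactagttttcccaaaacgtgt
CG6168 to CG6163, chr3L:11345706-11345806: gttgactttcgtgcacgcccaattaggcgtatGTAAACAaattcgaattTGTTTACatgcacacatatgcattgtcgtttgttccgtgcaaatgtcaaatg
CG7320 to CheA75a, chr3L:18242266-18242366: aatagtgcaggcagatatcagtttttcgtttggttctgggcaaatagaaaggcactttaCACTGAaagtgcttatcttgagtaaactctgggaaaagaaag
In the second of these both copies lie in 28 bases that read the same on both strands, and the site had a signal of 196.6 in replicate 1 and 167.6 in replicate 3. The site between CG7320 and CheA75a had 372.8 in replicate 1 and 399.4 in replicate 3.

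Distant sites came in groups. Another distant site lay within 10 kb of 350 of the 526 (66.5%, interval 62.4 to 70.4%), and 3 or more others lay within 10 kb of 150. The median distance to the next distant site was 4230 bp and the smallest 199 bp. Peaks can split 1 broad signal, so summits within 1 kb were also merged, which left 465 places, of which 277 (59.6%) still had a neighbour within 10 kb. Linked in steps of up to 10 kb, the sites formed 275 chains. Of these, 176 were a single site, and 23 chains of 5 or more sites held 152 sites. With every kind of site counted as a neighbour, 79.5% of distant sites and 77.2% of the others had one within 10 kb.

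Most gaps had none. There were 1423 gaps between neighbouring protein-coding genes that contain eligible sequence, and 233 of them held a distant site. A single site was found in 126 gaps, 2 or more in 107 and 5 or more in 30, and the last group held 194 of the 526 sites. The other 1190 gaps, with 16.6 Mb of eligible sequence, held none. These gaps hold 22.2 Mb of eligible sequence in all, the base of the densities by gap given below. The 10 fullest gaps, with a tie at 7 sites broken by summed signal, held 85 sites (16.2%) in 1.86% of it. They were ranked by their number of sites, so a share of sites above that of sequence follows from the ranking.

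**Figure D3:**
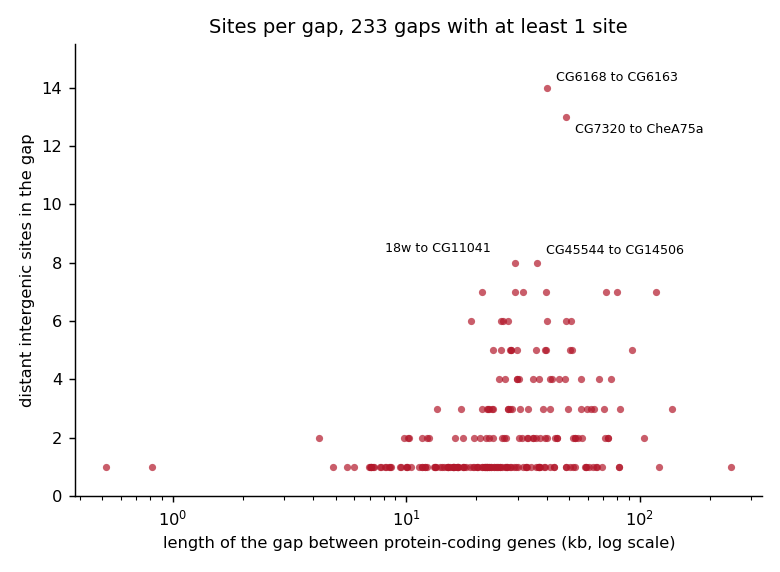
Number of distant intergenic sites (y axis) in each of the 233 gaps that hold at least 1, against the length of the gap between the flanking protein-coding genes (x axis, kb, log scale). The gaps from CG6168 to CG6163 with 14 sites and from CG7320 to CheA75a with 13 stand above all others, which hold at most 8, and both are of middle length.

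As the plot of sites per gap shows, the longest gene deserts were not the richest. Gaps with a site had a median length of 26574 bp and gaps without one 13120 bp. The share of gaps with a site grew with length, from 6.41% up to 15 kb and 22.1% from 15 to 30 kb to 35.0% from 30 to 60 kb, and was 32.0% over 60 kb. Per Mb of eligible sequence, however, there were 28.0, 36.8, 32.0 and 7.90 sites in these length classes. The 75 gaps over 60 kb hold more eligible sequence than any other class, 8.36 Mb, and only 66 sites. Soft-masked sequence, where short reads align less uniquely, made up 35.1% of the longest gaps and 20.3% of the shortest. These shares are of the gaps, not of their eligible sequence alone. The part of masking in the lower density was not tested. Whether gene starts or gene ends faced the gap made little difference: 107 sites (20.3%) had start sites facing from both sides and 140 (26.6%) from neither, against 20.9% and 27.3% of eligible sequence.

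Chromosome arms differed. Eligible sequence covered 24.0 Mb, or 18.0% of the arms, and held 21.9 distant sites per Mb, against 44.0 other sites per Mb of the remaining sequence. Arm 3L held 204 of the 526 sites (38.8%), at 31.8 per Mb, followed by 2L with 116 at 27.2 per Mb. The density was 19.4 per Mb on 3R, 15.1 on X and 11.9 on 2R, and chromosome 4 held 4 sites. Each replicate alone, with its 5354 strongest peaks, gave 218 sites on 3L in replicate 1 and 197 in replicate 3, and 64 and 56 on 2R. On X it gave 36 sites (10.6 per Mb) in replicate 1 and 52 (15.4 per Mb) in replicate 3. On 2R it gave 12.3 per Mb in replicate 1 and 10.8 in replicate 3, so the order of X and 2R turned in replicate 1. Without its 2 fullest gaps 3L still had 177 sites at 27.9 per Mb. Counted per unmasked Mb, with summits in unmasked sequence, 3L had 34.2 and 2R 14.7.

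The fullest gap, from CG6168 to CG6163 on 3L, is 40266 bp long and held 14 distant sites. Their signals ran from 148.2 to 1219, with a median of 228.2, and 11 of the 14 were in both replicate lists of equal length. The strongest lay 32.9 kb from CG6168 with 628.5 in replicate 1 and 583.7 in replicate 3, and 10 of the 14 lay between 24.0 and 34.2 kb. Neither flanking gene has a name that states a function. The gap from 18w, a Toll-family receptor gene, to CG11041 held 8 sites of 138.8 to 430.9, and that from CG45544 to CG14506 held 8 of 140.2 to 414.3. There were 7 gaps with 7 sites. They lay between Ids and sty (strongest 1288), between dnc, which encodes a cyclic AMP phosphodiesterase, and Myc (1075), between scyl and Dyro (888.0), between the POU-domain gene vvl and Prat2 (565.2), between comm, which controls axon crossing of the midline, and CG6244 (492.6), between the Iroquois homeobox genes caup and mirr (741.3), and between the pair-rule gene hry and SrpRbeta (305.2). Sites in a gap had unequal strengths: in each of these gaps the strongest exceeded the weakest by more than a factor of 2.

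**Figure D4:**
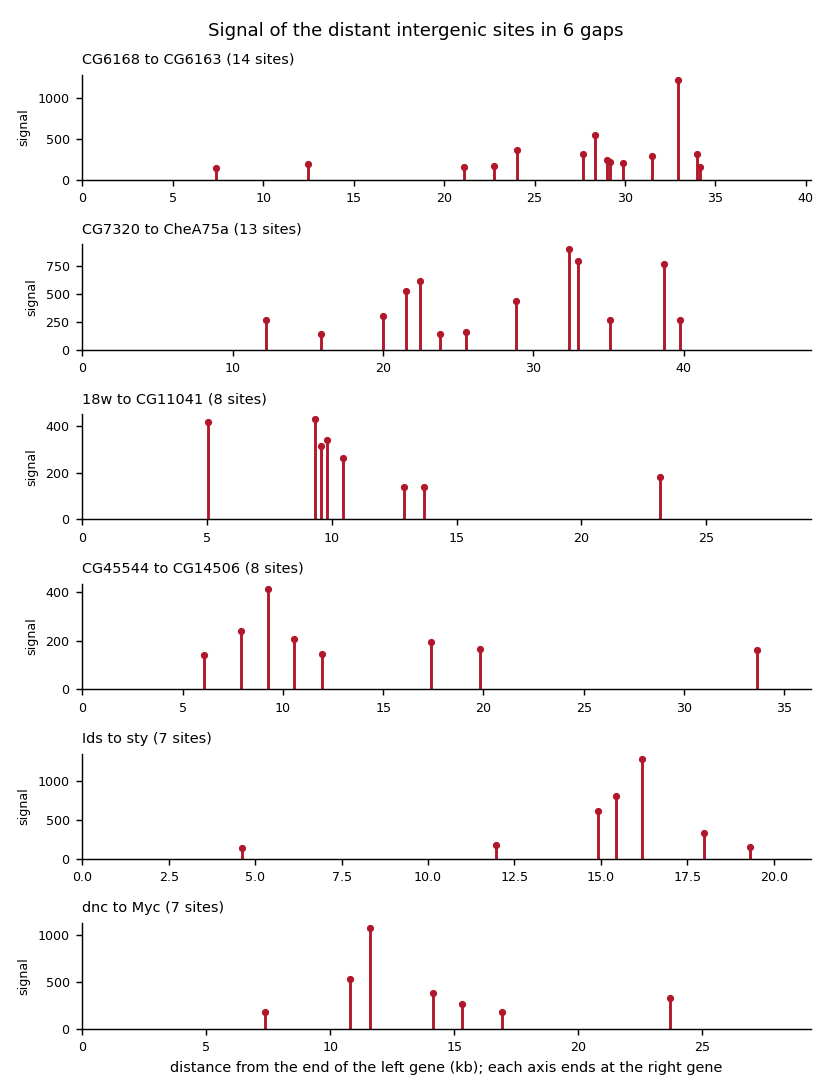
Signal (y axis) of each distant intergenic site against its distance from the end of the left flanking gene (x axis, kb) in the 6 gaps with the most sites; each x axis ends at the right gene. Sites sit together in part of a gap, as the 10 sites from 24.0 to 34.2 kb from CG6168 and the 5 sites from 10.8 to 16.9 kb from dnc do.

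The gap from CG7320 to CheA75a, with 13 sites of 141.0 to 899.7, is part of a wider group at the cell death genes. The stretch from hid to rpr on 3L spans 230.7 kb and contains hid, grim and rpr, whose products release caspases from inhibition and so start apoptosis. It held 24 distant sites among 32 sites in all, with a median signal of 333.7, and 21 of the 24 were in both replicate lists of equal length. A site between hid and CG7320 had 1105 in the joint list, 358.4 in replicate 1 and 750.1 in replicate 3. Between CheA75a and CG5103 lay 5 sites, the strongest with 1480.1 in the joint list, 476.0 in replicate 1 and 997.1 in replicate 3. Between grim and rpr, a gap of 93117 bp, lay 5 more, the strongest with 1163 in the joint list, 407.9 in replicate 1 and 747.2 in replicate 3. That site, shown above with its several TAAT cores, was 44378 bp from the TSS of grim. This stretch was picked out after its values were seen.

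Flanking genes were compared with all genes that could have flanked a site. Of the 2337 protein-coding genes beside eligible sequence, 421 (18.0%) flanked at least 1 distant site. Among genes of 15 lists of embryonic regulators, 72 of 177 did (40.7%, interval 33.7 to 48.0%). The lists overlap, and genes next to each other share a gap and its sites, so genes are not independent. The lists were also chosen with earlier results of these data known. This share is therefore a description, and its interval covers counting error only. Pair-rule genes, which divide the embryo into segments, had 6 of 7: slp2 (strongest site 396.6), odd (393.3), hry (305.2) and ftz (236.4), with run and opa. Gap genes had 6 of 10, among them oc (900.8), ems (739.7), slp1 (548.3) and kni (522.5). Segment polarity genes had 8 of 14. There Wnt4 and wg, which encode Wnt ligands, share a gap with 5 distant sites of up to 904.8, and mid had a site of 711.9 and hh, which encodes the Hedgehog ligand, 1 of 606.4. Hox genes had 3 of 6, abd-A at 1301, Antp at 192.2 and Dfd at 139.6.

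The list drawn up for homeobox genes of the NKL class, to which CG15696 belongs, had 9 of 16. Dr (618.3), C15 (437.2), Hmx (315.3) and slou (306.7) led. This list counts exex, while ems, en and inv stand in other lists, so it is not a count of the whole class. Other homeobox and POU genes had 11 of 28, with tup (1206), toe and eyg on either side of 1 gap (799.6) and caup (741.3). Genes of neural specification had 8 of 11, with esg (1069), SoxN (1063), Dr and pros (556.8). Genes of the trachea and epidermis had 7 of 12, with vvl (565.2), kni, knrl (428.8) and shg, which encodes E-cadherin (263.7). The T-box, Fox, Sox and zinc-finger list had 16 of 34, led by croc (2418), SoxN, drm (725.0) and mid. Genes of the mesoderm had 6 of 12, with tup, mid, Doc2 (685.9) and sna (383.5), and of the dorsal ectoderm 4 of 10, with tup, Doc1 and Doc2 and the growth factor dpp (446.9). In the Notch and EGFR list, 4 of 8 did: sty, vn and the Notch ligands Delta (900.3) and Ser (433.5).

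By the share of genes, other lists were nearer to the 18.0% of all genes or below it. Axon guidance and adhesion genes had 6 of 31, with Toll-6, caps (308.4), klg (218.2) and DIP-delta (212.9). Endoderm, gut and haemocyte genes had 3 of 10, drm, fkh (273.9) and Pvf3 (172.7), and nuclear receptor and ecdysone genes 2 of 8, kni and knrl. Chemoreceptor genes, which are expressed in sensory neurons, had 5 of 42, with Or65a (359.5), Or56a (338.2), Or67d (278.9) and Or98b (192.5). Cuticle protein genes had 1 of 17, Cpr35B (328.6), and ribosomal protein genes 0 of 10, whose interval reaches 27.8%. By distant sites per Mb of eligible sequence beside the genes, the order of the lists differed. The endoderm, gut and haemocyte list had 108 and the cuticle list 67.8, against 34.3 for the NKL list. The nuclear receptor list had 35.0, axon guidance 22.1, chemoreceptors 14.0 and ribosomal proteins 0.

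Gap length could enter this comparison, so densities were set side by side within length classes. Gaps beside a listed regulator held 191 sites at 53.4 per Mb of eligible sequence, and the other 1198 gaps held 335 sites at 18.0 per Mb. Their median lengths were 17192 and 14104.5 bp. In gaps up to 15 kb there were 39.4 sites per Mb beside regulators and 25.6 elsewhere, from 15 to 30 kb 91.6 and 25.7, from 30 to 60 kb 48.2 and 27.2, and over 60 kb 27.3 and 5.72. Density was higher beside regulators in each class, whereas the median signal was 241.2 at sites beside regulators and 237.8 at the others.

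**Figure D5:**
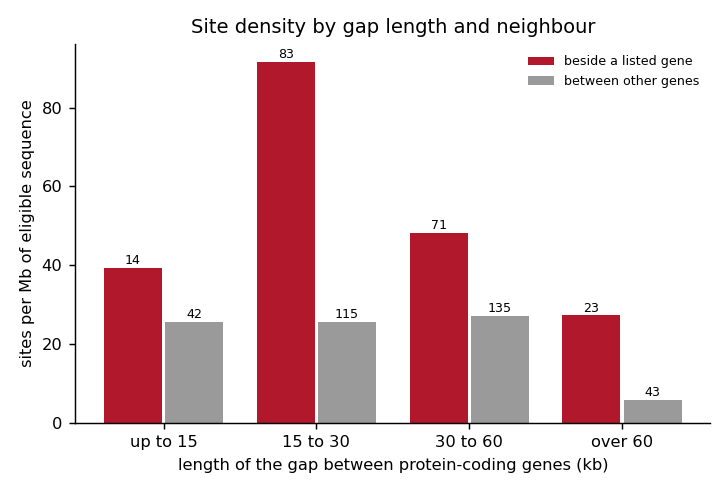
Distant intergenic sites per Mb of eligible sequence (y axis) by length of the gap (x axis, kb), for gaps beside a gene of the 15 regulator lists (red) and gaps between other genes (grey); the number over each bar is its count of sites. The red bar is higher in all 4 length classes, most of all from 15 to 30 kb, with 91.6 against 25.7.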

How the data were processed

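ChIP-seq was measured in 2 biological replicates of 1 group. Per the labels and the notes deposited with the files, the authors called peaks on each replicate and on both together against 1 control alignment on dm6, and thresholded them by irreproducible discovery rate (IDR). Caller, IDR threshold and sequencing depth were "not given in the sources used here"; hence precision from depth is unknown. Each peak carries the authors' signal, on an unstated scale, used to rank and describe peaks and as a log2 ratio between matched peaks of the replicate lists. The lists hold peak calls, so no count test was run.

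Genes and TSSs came from Ensembl release 115 (13945 protein-coding and 4219 non-coding genes, transposable elements not counted as genes) and sequence from the RefSeq copy of Release 6. Summits were matched within 100 bp. GC content and motifs were read within 50 bp of summits, with flanks centred 350 bp away and GC-matched windows tiled over eligible sequence. Intervals are 95% Wilson intervals. The genes named flank the 20 strongest distant sites or the 10 gaps with most sites, or are up to 4 per list with the strongest site beside them. Genes from hid to rpr, those beside CTCF letters and others outside this rule were picked with their values in view. The members and lists were chosen with earlier results of these data known; in the lists, 1 symbol was updated to Delta and 1 misplaced gene was removed from the homeobox list after counts were seen. Python 3.11.15, numpy 2.4.6, pandas 2.3.3, scipy 1.17.1 and matplotlib 3.10.9 were used. Alternatives varied the replicates, threshold, TSS distance, gene set, windows and matching. The summit sequence of 1 site is not reported here.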

Additional observations from a re-analysis of the deposited data

How the results depend on the processing

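Of 72 recomputed values, 51 stayed within their interval or within a factor of 1.5. With the peaks of 1 replicate alone, the number of distant sites ran from 511 to 525, their median signal from 104.0 to 143.7 (each list has its own scale), the share in both replicates from 70.5 to 72.6%, summit GC from 30.7 to 31.7%, the share with a neighbour from 65.0 to 70.3%, TAATTA from 7.62 to 8.41% and density from 21.3 to 21.9 per Mb. The sites of above-median signal held 235 distant sites at 9.79 per Mb, with a median signal of 446.9, 96.6% in both replicates and 51.5% with a neighbour. A TSS distance over 10000 bp left 294 sites and a GC of 29.7%. Counting the TSSs of all genes gave a GC of 29.7% and 61.4% with a neighbour. Both replicates held 58.9% of sites when summits had to lie within 50 bp, 75.7% within 200 bp, 60.1% with intervals overlapping by at least 50% of each and 94.1% in the full lists. GC rose to 33.8% within 100 bp and 38.9% within 200 bp of the summit, and TAATTA to 14.6% within 100 bp, since wider windows hold more sequence. A neighbour within 5 kb was found for 53.6% and within 20 kb for 76.6%. The RefSeq gene set of the same assembly gave 526 sites. No paired analysis was possible because there is only 1 group. The signal has no stated scale and the depth is unknown, so weak sites in a single list cannot be told from missed ones.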
